A study of Mus musculus with 12 samples.

Results

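The genes described here carry the signal of the gonadotropins inside the granulosa cell: the receptors Fshr and Lhcgr, the adenylyl cyclase Adcy7, the protein kinase A (PKA) subunits Prkar1a, Prkar2b and Prkaca, the phosphodiesterases Pde4b and Pde4d, the regulator of G protein signalling Rgs2 and the kinase Sgk1. The members were all probe sets that the array's annotation assigns to 1 gene only, where that gene is on this list of 10. This gave 25 probe sets for 9 of the 10 genes, out of 34945 single-gene probe sets that were tested. Lhcgr, the receptor of luteinizing hormone, had 0 such probe sets and was not analysed here.

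Granulosa cells line the ovarian follicle and nourish the oocyte. RNA was taken from cells obtained by puncturing antral follicles of mice 21 days old, of strain C57BL/6J;129S5/SvEvBrd, that were either wild type or Inha-/-. Inha encodes the alpha subunit of inhibin, and the Inha-/- animals are called the knockout below. Every mouse was primed with 5 IU of PMSG (pregnant mare serum gonadotropin), an FSH-like hormone, for 44 to 46 h. In each genotype 3 samples were taken at that point and another 3 samples at 6 h after 5 IU of human chorionic gonadotropin (hCG), an LH-like hormone. The 12 samples, described by the submitters as independent, were each hybridized to 1 Affymetrix array, and no source used here says whether animals were pooled.

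The values are log2 expression relative to the median that a probe set has across the 12 arrays. They show differences between arrays and not levels, so genes cannot be ranked by abundance and it is unknown which probe sets lie above background. Inha itself stood at 5.71 ± 0.145 (SD, n = 3) in wild type and -6.68 ± 1.11 in the knockout before hCG, and at 5.45 ± 0.068 and -7.36 ± 0.0306 after it, so every array labelled knockout was low. Correlations between replicates, over the 34945 probe sets tested, ran from 0.683 to 0.823 in wild type after hCG. In the knockout before hCG they ran from 0.205 to 0.358. They are correlations of centred values, so they also depend on how far a group lies from the median of the 12 arrays. The arrays carry 2 marks that differ between samples: a number in the array name, which replicates 1 of the 2 genotypes before hCG have in common, as do their replicates 2 and, after hCG, wild-type replicates 2 and 3; and a serial number, early on 7 arrays and late on 5. What either number stands for is not stated. All 3 wild-type arrays before hCG had early serial numbers.

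As background, FSH and LH bind receptors that couple to the stimulatory G protein. Adenylyl cyclases then make cyclic AMP (cAMP), which releases the catalytic subunits of PKA from their regulatory subunits. Phosphodiesterases break cAMP down, RGS proteins shorten the signals of some G proteins, and kinases such as SGK1 act further along. In granulosa cells FSH drives follicle growth and estradiol synthesis through this route, and the LH surge uses it to start ovulation and luteinization.

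Each contrast was tested with limma over all 34945 probe sets, with p adjusted by the Benjamini-Hochberg method, and a probe set was called at an adjusted p under 0.05. Among the members 14 of 25 probe sets were called for the hCG response in wild type, 10 higher and 4 lower, against 12.1% of all probe sets tested, 5.98% of them higher and 6.17% lower. For the hCG response in the knockout 5 of 25 were called, all higher, against 1.2% of all, with 1.1% higher and 0.1% lower. Between the genotypes 6 of 25 were called before hCG, 5 higher and 1 lower in the knockout, against 3.04% of all (1.44% higher, 1.6% lower). After hCG 8 of 25 were called, 5 higher and 3 lower, against 12.1% of all (6.58% higher, 5.55% lower). The test of the difference between the 2 hCG responses called 1 of 25, lower, against 0.93% of all (0.209% higher, 0.721% lower). Probe sets of 1 gene share their source, so these counts are not counts of independent genes. The members were also chosen with earlier results of these data known, so neither these counts nor the medians below test for an excess. By gene, counted where any 1 of its probe sets was called, 5 of 9 rose and 2 of 9 fell with hCG in wild type. In the knockout 4 of 9 rose. Prkaca in wild type and Rgs2 in the knockout counted through a probe set other than the one of largest SD. Of all 18193 genes, each read on its probe set of largest SD alone, 6.34% rose and 7.14% fell in wild type. In the knockout these shares were 1.3% and 0.137%. A gene with several probe sets has more chances of a call than those shares allow. The median difference over the 25 probe sets came to 0.57 for wild type and 0.29 for the knockout, beside 0.0047 and -0.0363 over all probe sets.

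**Figure D1:**
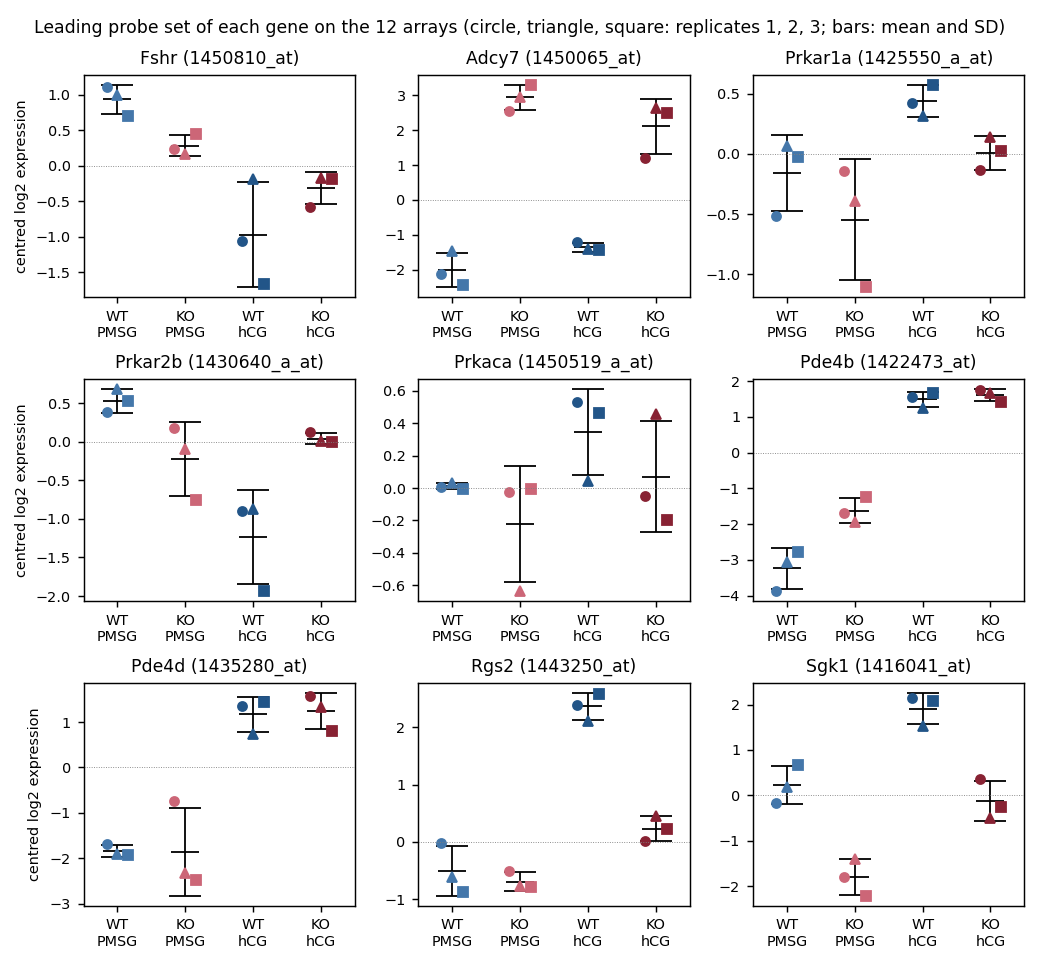
Centred log2 expression (vertical axis) of 1 probe set of each of the 9 genes on each of the 12 arrays, in 4 groups of genotype and treatment; markers show replicates 1 to 3, the long bar the mean and the short bars the SD. Pde4b and Pde4d are higher on all 6 arrays after hCG than on all 6 before it, Adcy7 is higher on all 6 knockout arrays than on all 6 wild-type arrays, and the panels differ in their vertical scale.

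Fshr, the receptor through which FSH acts on granulosa cells, fell with hCG in wild type. Its single probe set, 1450810_at, read 1.11, 0.99 and 0.70 in wild type before hCG and -1.06, -0.19 and -1.66 after it. The knockout arrays read 0.24, 0.17 and 0.45 before and -0.58, -0.17 and -0.19 after. In each genotype the arrays before hCG lie above those after it, and the drop is the wider in wild type. The fall in wild type was -1.91 ± 0.31 (SE; n = 3 a group; adjusted p = 0.00473), a 3.75-fold decrease. It kept its call in all 12 fits that each left out 1 array. In the knockout the difference was -0.60 ± 0.31 (adjusted p = 0.656), which was not called.

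The group means of Fshr run from 0.94 in wild type before hCG through 0.29 and -0.31 in the knockout before and after hCG to -0.97 in wild type after hCG. No pair of neighbours in that order differed beyond the threshold: the genotypes differed by -0.65 before hCG (adjusted p = 0.394) and by 0.66 after it (adjusted p = 0.25). The difference between the 2 responses was 1.31 (95% confidence interval 0.32 to 2.30, adjusted p = 0.28). These last values turn on replicate 2 of wild type after hCG, the highest of its group. Without it the knockout was 1.05 above wild type after hCG (adjusted p = 0.0138) and the responses differed by 1.70 (adjusted p = 0.0221). Markers of granulosa cells moved in the same samples: 6 of 7 measured fell with hCG in wild type and 0 of 7 in the knockout, and their summed level ran from -20.0 to -8.02 on the wild-type arrays after hCG and from -0.467 to 0.0359 on those of the knockout. In samples of whole cell harvests fewer cells of a type and less RNA per cell cannot be told apart, and the part of these markers in the fall of Fshr was not tested.

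The 5 genes whose values were most like those of Fshr over the 12 arrays, among 1526 genes with an SD of at least 1, were Scrn2 and Zc3h6 (Pearson r = 0.954 each), and Fbp1, Smim10l2a and Aldh1a7 (r = 0.939 each). These correlations describe the same 12 arrays in 4 groups and carry no test. The hCG differences of the 5 genes ran from -2.85 to -2.25 in wild type and from -1.30 to -0.25 in the knockout. The genes were picked for likeness to Fshr on these arrays, so a fall in wild type follows from the choice.

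The sequence upstream of Fshr is shown because it holds a palindrome found before several members, among them Prkar2b, which also fell with hCG. From RefSeq on GRCm38.p6, the 100 bases before the annotated Fshr start, at chr17:89200676-89200775 on the minus strand, contain CACGTG (capitals), the letters of an E-box, to which basic helix-loop-helix factors bind.
Fshr: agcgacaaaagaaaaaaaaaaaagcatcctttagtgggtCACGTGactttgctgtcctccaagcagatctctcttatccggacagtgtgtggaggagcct
CACGTG is its own reverse complement, so 1 search covers both strands. It occurs in 7.15% of 32851 promoter windows of one length, and in 5 of 27 windows of the 10 listed genes, 1 window in each of 5 genes. Besides Fshr and Prkar2b these are Sgk1 and Prkaca, which were called higher with hCG in wild type, and Prkar1a, which was not called. A match is a description of letters and no evidence of binding.

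Adcy7, an adenylyl cyclase that makes cAMP, was far higher in the knockout both before and after hCG. Probe set 1450065_at read -2.12, -1.46 and -2.43 in wild type and 2.56, 2.96 and 3.29 in the knockout before hCG. After hCG it read -1.21, -1.42 and -1.45 in wild type and 1.21, 2.64 and 2.50 in the knockout. All 6 knockout arrays lie above all 6 wild-type arrays. The excess was 4.94 ± 0.38 (SE; adjusted p = 0.000698), a 30.7-fold excess, before hCG and 3.47 ± 0.38 (adjusted p = 0.000653), an 11.1-fold excess, after it. The second probe set, 1456307_s_at, gave 4.54 (adjusted p = 0.002) and 2.97 (adjusted p = 0.00354). Both kept these calls without any 1 of the 12 arrays.

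The last Adcy7 probe set, 1420970_at, showed nearly a single value, between -0.25 and -0.20, on all 6 wild-type arrays. On the knockout arrays it read 3.27, 3.58 and 3.23 before hCG and 0.20, 3.02 and 2.60 after. Replicate 1 of the knockout after hCG is the lowest knockout array on all 3 Adcy7 probe sets. This probe set was called before hCG (3.59, adjusted p = 0.0137). After hCG it was called at 2.17 (adjusted p = 0.04), and of the 12 fits leaving out 1 array only that without this replicate kept the call, with 11 others giving an adjusted p of up to 0.138. No Adcy7 probe set was called for hCG in either genotype: 1450065_at differed by 0.65 (adjusted p = 0.403) in wild type and by -0.82 (adjusted p = 0.581) in the knockout. The latter was -2.06 (adjusted p = 0.0198) after a further quantile normalization, made on the centred values. The difference of responses was then -2.94 (adjusted p = 0.0397). That step gives all arrays the same spread, where their SDs ran from 0.371 to 0.727.

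Within the numbers of the array names the Adcy7 difference before hCG was 4.68 for replicate 1 and 4.42 for replicate 2. Among early serial numbers alone, 3 wild-type against 2 knockout arrays, 1450065_at kept its call and 1456307_s_at gave 4.32 (adjusted p = 0.0858). Among late ones alone after hCG, 2 against 2 arrays, 1456307_s_at gave 3.09 (adjusted p = 0.0753). The knockout samples also differed in markers of other cells. Of 10 oocyte markers 3 were called higher in the knockout before hCG and 7 after, and their summed level ran from 9.78 to 22.7 in the knockout against -17.7 to -5.74 in wild type before hCG, and from 5.42 to 30.5 against -19.0 to -12.7 after it. Of 10 markers of theca and stroma 4 and 7 were called higher and 0 lower. Their sums were 3.87 to 16.6 against -4.29 to -1.53 before hCG and 2.48 to 21.6 against -15.0 to -5.35 after. Not all of these markers were higher: their differences ran from -2.94 to 2.87 before hCG and from -1.355 to 3.71 after. Of 8 markers of the surface epithelium 4 were lower in the knockout at each time, with sums of -9.44 to -3.31 against 0.292 to 5.87 before hCG and -3.67 to -1.89 against 4.45 to 7.35 after. Of 10 leukocyte markers 0 were called in any contrast. Centred values do not show which of these markers are absent, and their part in the genotype differences of Adcy7 and of the genes below was not tested.

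**Figure D2:**
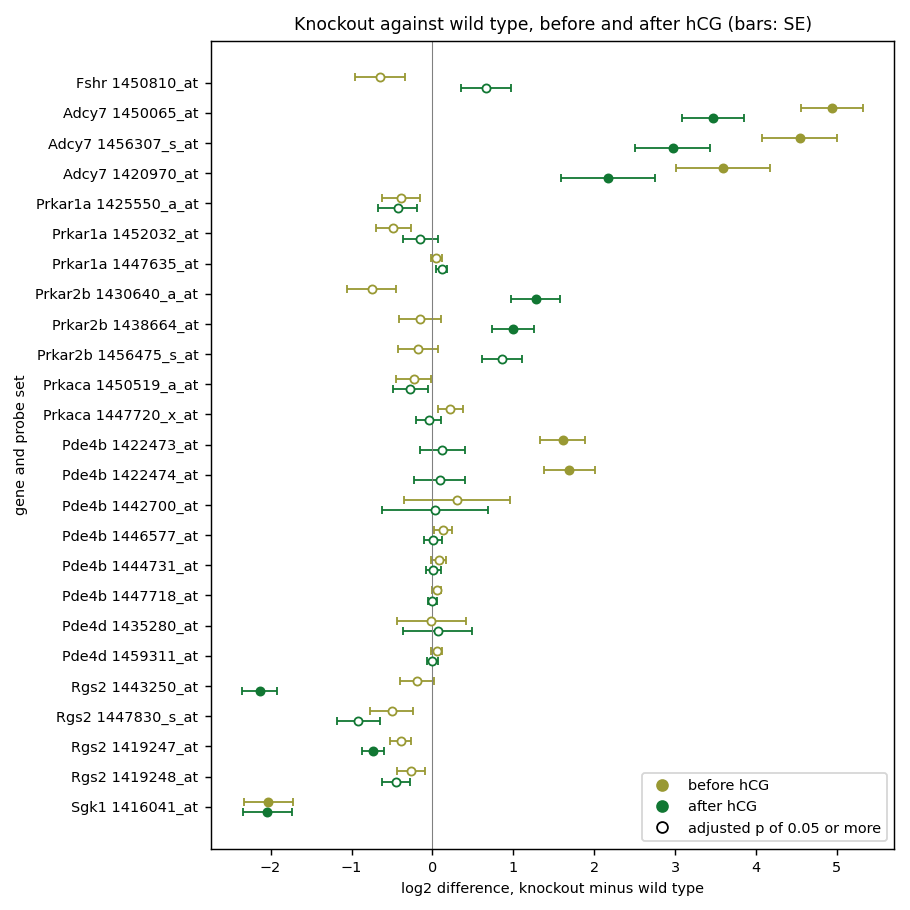
Log2 difference, knockout minus wild type (horizontal axis), with its SE, for each of the 25 probe sets before and after hCG; filled points have an adjusted p under 0.05. The 3 Adcy7 probe sets lie between 2.17 and 4.94 and Sgk1 near -2.03 at both times, 2 Pde4b probe sets were called before hCG and not after, and Rgs2 1443250_at after hCG and not before.

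Of the PKA subunits Prkar2b, the RII beta regulatory subunit that FSH is known to induce in granulosa cells, fell with hCG in wild type on all 3 of its probe sets. Probe set 1430640_a_at read 0.38, 0.69 and 0.52 in wild type before hCG and -0.90, -0.87 and -1.94 after it. Knockout values were 0.17, -0.09 and -0.75 before and 0.12, 0.01 and -0.01 after. The wild-type groups do not overlap, while the knockout groups do. The fall in wild type was -1.76 ± 0.30 (SE; adjusted p = 0.00609), a 3.39-fold decrease that kept its call without any 1 array. The difference in the knockout was 0.26 (95% confidence interval -0.42 to 0.94, adjusted p = 0.848). After hCG the knockout was 1.27 ± 0.30 above wild type (adjusted p = 0.0242), with all 3 of its arrays above all 3 of wild type.

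The other 2 Prkar2b probe sets fell by 1.01 (1438664_at, adjusted p = 0.0346) and by 0.95 (1456475_s_at, adjusted p = 0.0363) in wild type. Replicate 3 of wild type after hCG is the lowest array on all 3 probe sets, and without it the falls were -0.66 and -0.62, both still called (adjusted p = 0.0345 and 0.0411). The calls of these 2 probe sets held in 5 and in 4 of the 12 fits that left out 1 array, with an adjusted p of up to 0.101 and 0.102. They were lost without any 1 of the wild-type arrays before hCG, replicate 2 of the knockout before hCG, replicate 1 of wild type after hCG, or replicates 2 or 3 of the knockout after hCG, and for 1456475_s_at also without replicate 1 of the knockout after hCG. The excess of the knockout on 1430640_a_at was lost without replicate 3 of wild type after hCG (0.92, adjusted p = 0.0507) and without any 1 of the knockout arrays after hCG (adjusted p of up to 0.0677). On 1438664_at that excess was 0.99 (adjusted p = 0.0373) and was called in 4 of the 12 fits, those without replicates 1 or 3 of the knockout before hCG or replicates 2 or 3 of wild type after it. On 1456475_s_at it was 0.86 (adjusted p = 0.0526), called without replicate 2 of wild type after hCG (1.12, adjusted p = 0.0125).

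With the array-name number as a random block the hCG difference of 1430640_a_at in wild type was -1.60 (adjusted p = 0.0582) and its genotype difference after hCG 1.22 (adjusted p = 0.14). With early or late serial number as a covariate the falls on 1438664_at and 1456475_s_at were -0.86 (adjusted p = 0.124) and -0.80 (adjusted p = 0.13). Among late serial numbers alone the genotype difference of 1430640_a_at after hCG was 1.40 (adjusted p = 0.271). The difference between the 2 hCG responses of 1430640_a_at was 2.03 ± 0.43 (adjusted p = 0.0737). It was called at 2.21 (adjusted p = 0.0442) without replicate 2 of wild type after hCG, and at the same 2.03 when only probe sets of high SD were tested (adjusted p = 0.0346). The fall of the granulosa markers in wild type, given above with Fshr, moved with that of Prkar2b too, and its part was not tested.

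The stretch before the Prkar2b start is shown for the same letters as that of Fshr. It lies at chr12:32061278-32061377 on the minus strand (RefSeq, GRCm38.p6), and CACGTG is in capitals.
Prkar2b: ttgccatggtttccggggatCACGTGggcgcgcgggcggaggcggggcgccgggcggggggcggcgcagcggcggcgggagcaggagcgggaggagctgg

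Prkar1a, the RI alpha regulatory subunit, was called in no contrast on any of its 3 probe sets. Probe set 1425550_a_at read -0.52, 0.06 and -0.02 in wild type before hCG and 0.42, 0.32 and 0.58 after, a difference of 0.60 (95% confidence interval 0.06 to 1.13, adjusted p = 0.159). Without replicate 3 of the knockout before hCG, the lowest array at -1.11, that difference was called (adjusted p = 0.0434). In the knockout it was 0.55 (adjusted p = 0.507). Prkaca, the catalytic subunit alpha, read -0.45, -0.29 and -0.20 before hCG and -0.12, 0.38 and 0.50 after it in wild type on 1447720_x_at, a rise of 0.57 (adjusted p = 0.0446). That call held only without replicate 2 of the knockout before hCG or replicate 1 of wild type after hCG, and reached an adjusted p of 0.17 in the other fits leaving out 1 array. It was also lost with early or late serial number as a covariate (0.44, adjusted p = 0.162). Its other probe set, 1450519_a_at, differed by 0.34 (adjusted p = 0.461) and no Prkaca probe set was called between the genotypes.

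Of the phosphodiesterases, Pde4b and Pde4d, which hydrolyse cAMP, rose with hCG in both genotypes. Pde4b probe set 1422473_at read -3.88, -3.05 and -2.78 in wild type before hCG and 1.54, 1.25 and 1.67 after it. The knockout arrays stood at -1.70, -1.94 and -1.25 before and 1.75, 1.66 and 1.41 after. All 6 arrays after hCG lie above all 6 before it, the knockout starts higher, and the genotypes overlap after hCG. The rise was 4.72 ± 0.28 (SE; adjusted p = 1.37e-05) in wild type, 26.4-fold, and 3.24 ± 0.28 (adjusted p = 0.000378) in the knockout, 9.42-fold. Probe set 1422474_at gave 3.97 (adjusted p = 7.91e-05) and 2.37 (adjusted p = 0.00573). All 4 calls held without any 1 array.

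Before hCG Pde4b was higher in the knockout by 1.61 ± 0.28 on 1422473_at (adjusted p = 0.0173) and by 1.69 ± 0.31 on 1422474_at (adjusted p = 0.0228), about 3.05-fold and 3.23-fold. After hCG the same differences were 0.12 (95% confidence interval -0.50 to 0.74) and 0.09 (-0.62 to 0.80), with an adjusted p of 1 each. The difference between the hCG responses was -1.49 (adjusted p = 0.148) and -1.60 (adjusted p = 0.173), which was not called. The call before hCG was lost on 1422473_at without replicate 3 of the knockout (1.42, adjusted p = 0.0543). On 1422474_at it was lost without any 1 of the 3 wild-type arrays before hCG, with values of 1.58, 1.73 and 1.76 and adjusted p values of 0.0783, 0.063 and 0.0643. Among early serial numbers alone the 2 differences were 1.42 (adjusted p = 0.265) and 1.83 (adjusted p = 0.174), and within the array-name numbers 1422473_at differed by 2.18 and by 1.11. The oocyte, theca and epithelium markers given with Adcy7 differ in the same samples.

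Another Pde4b probe set, 1442700_at, stood between -0.95 and -0.85 in wild type before hCG and at 0.02, 2.42 and 2.31 after. Its rise of 2.47 (adjusted p = 0.039) was 1.69 (adjusted p = 0.124) with early or late serial number as a covariate. The call at 2.47 was carried by replicates 2 and 3, the arrays with late serial numbers. It was lost without any 1 of the wild-type arrays before hCG, replicates 2 or 3 of the knockout before hCG, replicates 2 or 3 of wild type after hCG, or replicate 2 of the knockout after hCG (adjusted p of up to 0.154). In the knockout it differed by 2.20 (adjusted p = 0.246). The remaining 3 probe sets, 1446577_at, 1444731_at and 1447718_at, had an SD of 0.126 or less over the 12 arrays and were not called in any contrast.

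Pde4d probe set 1435280_at read -1.68, -1.89 and -1.93 in wild type before hCG and 1.35, 0.73 and 1.44 after. In the knockout it read -0.73, -2.33 and -2.48 before and 1.58, 1.33 and 0.80 after. The arrays before and after hCG do not overlap in either genotype, and the 2 genotypes overlap at both times. The rise was 3.01 ± 0.43 (adjusted p = 0.00243) in wild type and 3.09 ± 0.43 (adjusted p = 0.00769) in the knockout, 8.04-fold and 8.49-fold, both held without any 1 array. The difference between these responses was 0.08, with a 95% confidence interval of -1.28 to 1.44. Before hCG the genotypes differed by -0.01 (-0.97 to 0.95, adjusted p = 0.988), which does not show that they were alike. The other probe set, 1459311_at, had an SD of 0.0643 and was not called.

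**Figure D3:**
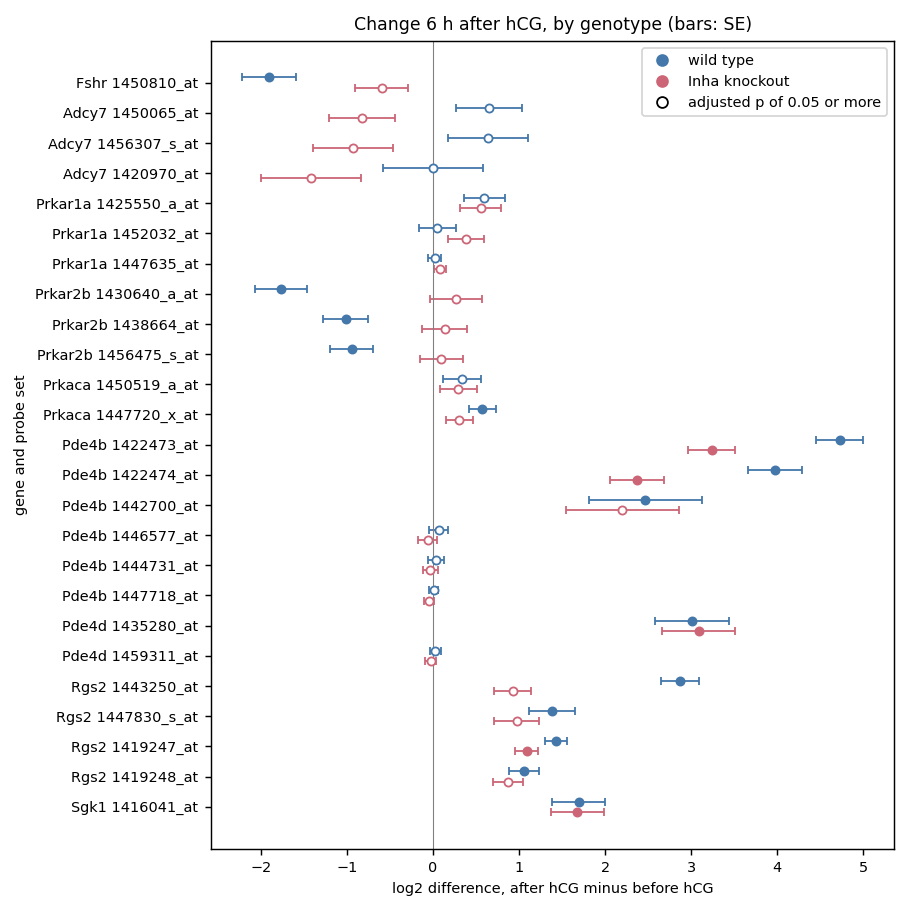
Log2 difference after minus before hCG (horizontal axis), with its SE, for each of the 25 probe sets in wild type and in the knockout; filled points have an adjusted p under 0.05. Pde4b 1422473_at rose by 4.72 in wild type and by 3.24 in knockout cells and Pde4d 1435280_at by 3.01 and 3.09, and the 3 Prkar2b probe sets were called lower in wild type and not called in the knockout.

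Rgs2, which speeds the shut-off of some G protein alpha subunits, rose with hCG in wild type on all 4 of its probe sets. Probe set 1443250_at read -0.02, -0.61 and -0.87 in wild type before hCG and 2.40, 2.12 and 2.58 after it. Knockout values were -0.51, -0.78 and -0.79 before and 0.02, 0.45 and 0.22 after. The genotypes overlap before hCG, and after it every wild-type array is higher than every knockout array. The rise was 2.87 ± 0.22 (SE; adjusted p = 5.69e-05) in wild type, 7.31-fold, and the difference in the knockout was 0.93 ± 0.22 (adjusted p = 0.104). Without replicate 1 of wild type before hCG, which leaves the knockout difference at 0.93, that difference was called (adjusted p = 0.0329). After hCG the knockout stood 2.14 ± 0.22 below wild type (adjusted p = 0.000441), a 4.40-fold difference that held without any 1 array. Among late serial numbers alone it was -2.02 (adjusted p = 0.0898).

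The difference between the 2 responses of 1443250_at was -1.94 ± 0.31 (adjusted p = 0.0246), the only such call among the 25 probe sets. It held in 5 of the 12 fits that left out 1 array. It was lost without replicates 2 or 3 of wild type before hCG, replicates 1 or 3 of the knockout before hCG, replicate 3 of wild type after hCG, or replicates 1 or 3 of the knockout after hCG, with values of -1.99 to -1.76 and an adjusted p of up to 0.0747. After a further quantile normalization it was -1.45 (adjusted p = 0.162).

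The other 3 probe sets of Rgs2 gave smaller differences. On 1419247_at the rise was 1.43 ± 0.13 (adjusted p = 0.000205) in wild type and 1.09 ± 0.13 (adjusted p = 0.00349) in the knockout, and the difference between these responses was -0.34 (95% confidence interval -0.76 to 0.08, adjusted p = 0.636). The knockout was lower after hCG by 0.74 (adjusted p = 0.00691) on this probe set, a value of -0.36 (adjusted p = 0.206) after a further quantile normalization. On 1447830_s_at the rise in wild type was 1.38 (adjusted p = 0.00963, and 0.0808 after that normalization) and on 1419248_at it was 1.06 (adjusted p = 0.00483). In the knockout these 2 differed by 0.97 (adjusted p = 0.179) and 0.87 (adjusted p = 0.051), the latter called without replicate 1 of the knockout before hCG (0.998, adjusted p = 0.0399). Replicate 1 of the knockout after hCG is the highest of its group on both, at 1.07 and 0.70. Without it the genotypes after hCG differed by -1.27 on 1447830_s_at (adjusted p = 0.00182) and by -0.64 on 1419248_at (adjusted p = 0.0299). With all arrays these differences were -0.92 (adjusted p = 0.0532) and -0.45 (adjusted p = 0.142). With early or late serial number as a covariate the former had an adjusted p of 0.0447. The size of the genotype difference thus depends on the probe set.

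Sequences before the starts of Rgs2 and Pde4b are shown because both genes rose with hCG in wild type and both hold TGACG, the core letters of the cAMP response element, on which CREB family factors act. Matches on either strand are in capitals (CGTCA is TGACG on the other strand). For Rgs2 the stretch is chr1:144004200-144004349 on the minus strand and for Pde4b chr4:102421455-102421554 on the plus strand (RefSeq, GRCm38.p6).
Rgs2: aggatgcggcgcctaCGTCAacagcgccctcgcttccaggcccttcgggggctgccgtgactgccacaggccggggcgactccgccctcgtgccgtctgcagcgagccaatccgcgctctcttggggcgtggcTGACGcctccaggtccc
Pde4b: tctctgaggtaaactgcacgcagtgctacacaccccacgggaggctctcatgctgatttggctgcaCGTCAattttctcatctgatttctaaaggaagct
TGACG occurs in 20.8% of the 32851 windows on either strand. Among the listed genes it occurs in 8 of 27 windows, in 6 of the 10 genes. Besides Rgs2 and Pde4b these are Sgk1 and Prkaca, called higher with hCG in wild type, and Adcy7 and Prkar1a, not called for hCG. Pde4d, which rose in both genotypes, holds no match. As with CACGTG, a match is a description of letters and no evidence of binding. The full palindrome TGACGTCA, each copy of which also counts as TGACG, occurs in 1.79% of windows and in 2 of the 27. Both are windows of Prkar1a, which was called in no contrast. These 2 windows overlap and hold the same copy of the palindrome, and their TGACG matches are likewise the same bases counted in both.

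Sgk1, a kinase that FSH is known to induce in granulosa cells, was lower in the knockout at both times and rose with hCG in both genotypes. Its single probe set, 1416041_at, read -0.17, 0.17 and 0.66 in wild type before hCG and 2.14, 1.52 and 2.08 after. In the knockout it read -1.80, -1.41 and -2.21 before and 0.36, -0.50 and -0.25 after. All 3 knockout arrays lie below all 3 wild-type arrays at each time. The genotype difference was -2.03 ± 0.31 (SE; adjusted p = 0.00979) before hCG and -2.04 ± 0.31 (adjusted p = 0.00292) after it, 4.08-fold and 4.12-fold, and both held without any 1 array. Among early serial numbers alone the first was -1.83 (adjusted p = 0.134), among late ones alone the second was -2.17 (adjusted p = 0.0959), and within the array-name numbers the first was -1.63 and -1.59.

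The rise of Sgk1 with hCG was 1.69 ± 0.31 (adjusted p = 0.00775) in wild type and 1.68 ± 0.31 (adjusted p = 0.034) in the knockout. The difference between these responses was -0.01, with a 95% confidence interval of -0.99 to 0.96. The call in the knockout held in 4 of the 12 fits that left out 1 array. It was lost without replicate 2 of wild type before hCG, replicates 1 or 3 of the knockout before hCG, replicates 1 or 3 of wild type after hCG, or any 1 of the knockout arrays after hCG, with values of 1.43 to 1.86 and an adjusted p of up to 0.0995. After a further quantile normalization the rise was 1.10 (adjusted p = 0.0655) in wild type and 1.32 (adjusted p = 0.101) in the knockout, and with the array-name number as a random block it was 1.57 (adjusted p = 0.0824) in the knockout. Of 10 genes that answer dissociation and stress 0 were called between the genotypes before hCG, with overlapping sums of -22.1 to -0.278 in the knockout and -3.91 to 17.1 in wild type, and 1 of 10 was called lower after it, with sums of -5.76 to 3.96 against 8.43 to 21.5. Their part in the differences of Sgk1 and Rgs2 was not tested.

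**Figure D4:**
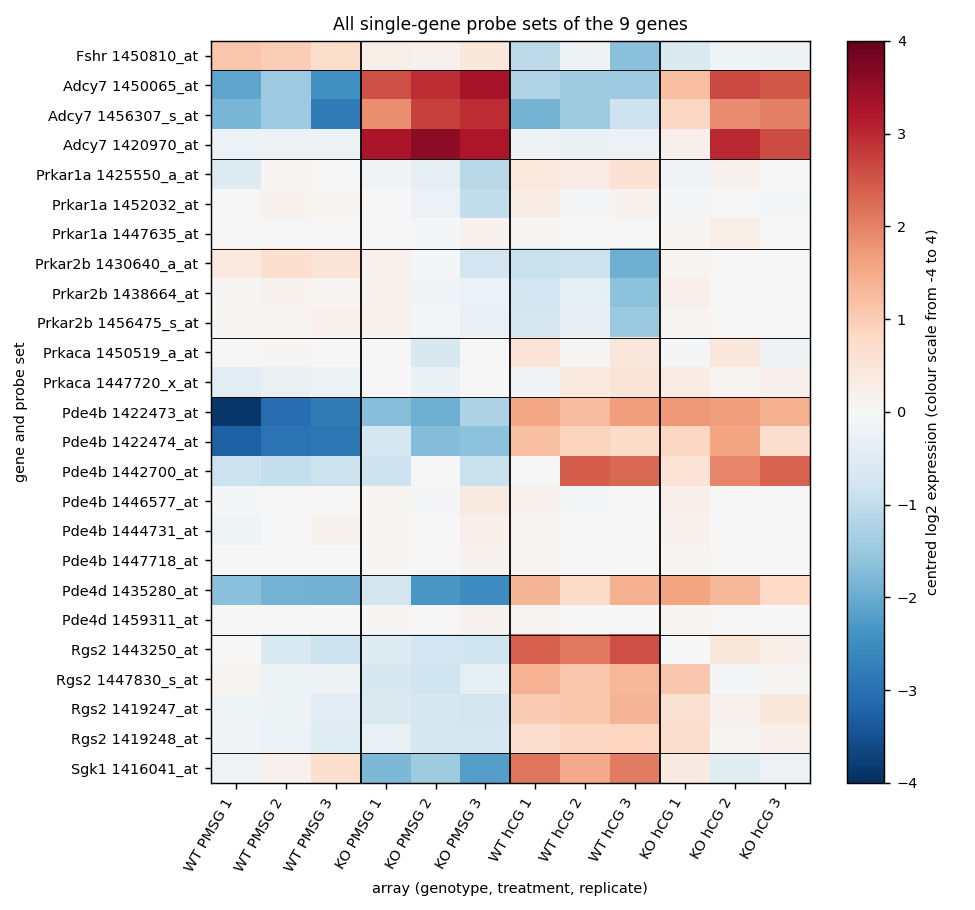
Centred log2 expression of all 25 probe sets (rows, grouped by gene) on the 12 arrays (columns, grouped by genotype and treatment), from blue (-4) through white (0) to red (4). The 3 Adcy7 probe sets are red in the knockout columns except for 1420970_at on replicate 1 after hCG, 2 Pde4b probe sets and Pde4d 1435280_at turn from blue to red with hCG, and 5 rows of Prkar1a, Pde4b and Pde4d stay near white throughout.

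Other genes of the pathway were read from 9 lists holding 117 measured genes, each represented by the probe set that varied most (by SD) across the 12 arrays. In wild type 17 of the 117 rose with hCG and 10 fell, against 6.34% and 7.14% of the 18193 genes measured in this way. In the knockout 10 rose and 0 fell, against 1.3% and 0.137%. Of these rises, 6 in wild type and 7 in the knockout came from the list of 14 gonadotropin target genes. The lists were chosen with earlier results of these data known, so no share in this paragraph tests for an excess. The same holds for the counts by list below, which are to be read beside this paragraph's shares of all genes. Between the genotypes 2 were higher and 3 lower in the knockout before hCG (1.7% and 1.64% of all genes), and 10 higher and 13 lower after it (7.79% and 5.47%). The lower calls at both times include Inha itself, a gonadotropin target on these lists, which the genotype fixes. The responses differed for 4 genes, against 1.08% of all.

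Of 19 other adenylyl cyclases and G proteins, Adcy3, a further cyclase, was the only one called before hCG. It read -0.58, -0.83 and -0.71 in wild type and 0.71, 1.08 and 0.58 in the knockout before hCG, and after it between -1.36 and -0.89 in wild type against 1.56, 1.39 and 1.35 in the knockout. The genotypes do not overlap, and the differences were 1.50 ± 0.15 (adjusted p = 0.002) and 2.52 ± 0.15 (adjusted p = 3.98e-05), on the same side as those of Adcy7. Of its other 3 probe sets 1421960_at was called at both times (1.24 and 1.73), and the remaining pair was called after hCG (1.81 and 0.77) and not before it (0.66 and 0.32). Among early serial numbers alone the difference of the leading probe set before hCG was 1.60 (adjusted p = 0.0614), and among late ones after hCG 2.55 (adjusted p = 0.064).

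Of 13 other cAMP phosphodiesterases 3 rose with hCG in wild type and 1 in the knockout. Pde3b, a phosphodiesterase inhibited by cGMP, was 2.46 ± 0.31 higher in the knockout before hCG (adjusted p = 0.00443), where the wild-type arrays read -1.77, -1.83 and -1.93 and those of the knockout -0.07, 1.02 and 0.93. Among early serial numbers alone this was 2.31 (adjusted p = 0.123). Pde3b rose by 1.57 with hCG in wild type (adjusted p = 0.0109, and 0.0604 with the array-name number as a random block). Pde10a, which breaks down cAMP and cGMP, rose in both genotypes on 1439618_at, by 1.81 ± 0.33 in wild type (adjusted p = 0.00808) and 2.58 ± 0.33 in the knockout (adjusted p = 0.005). On its probe set 1419389_at the values were 0.90 (adjusted p = 0.0787) and 2.35 (adjusted p = 0.00349), and its other 3 probe sets were not called for hCG.

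The EPAC and CREB list, which holds the factors that read cAMP in the nucleus and through the small G protein RAP1, had 3 of 14 genes higher after hCG in wild type and 1 in the knockout. Crem, whose short forms repress cAMP-driven transcription, read -2.14, -2.32 and -1.82 before hCG and 2.26, 1.82 and 2.20 after it in wild type, and -1.98, -3.26 and -2.93 before and 2.77, 2.88 and 2.66 after in the knockout. All arrays after hCG lie above all before it, with rises of 4.18 ± 0.29 (adjusted p = 3.62e-05) and 5.49 ± 0.29 (adjusted p = 1.33e-05). Probe set 1418322_at gave 3.97 and 5.45, and its other 2 probe sets were not called. Rap1a, a small G protein that EPAC activates, rose by 1.75 ± 0.14 in wild type (adjusted p = 9.21e-05), differed by 0.60 in the knockout (adjusted p = 0.11), and the responses differed by -1.15 (adjusted p = 0.0355). That last call held in 3 of the 12 fits leaving out 1 array, being lost without any 1 of the arrays before hCG or of the knockout arrays after it (adjusted p of up to 0.0914), and on its other probe set, 1424139_at, the value was -0.89 (adjusted p = 0.204).

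Among 11 other genes of the SGK and AKT kinases 2 rose and 3 fell with hCG in wild type and 0 were called in the knockout. Tsc22d3, a leucine zipper protein known as a glucocorticoid target, read 0.28, 0.06 and 0.22 in wild type before hCG and 1.93, 1.58 and 2.29 after, and in the knockout -0.06, -0.39 and -0.71 before and -0.93, -0.83 and -0.84 after. It rose by 1.75 in wild type (adjusted p = 0.000576) and differed by -0.48 in the knockout (adjusted p = 0.454). The responses differed by -2.23 ± 0.27 (adjusted p = 0.00737), a call that held without any 1 array. On 1420772_a_at the difference was -2.12 (adjusted p = 0.0416), and its other 2 probe sets were not called. Foxo1, a transcription factor that AKT and SGK1 phosphorylate, fell by 2.02 with hCG in wild type (adjusted p = 0.00567, and 0.0619 with the array-name number as a random block). Of its other 3 probe sets 1416983_s_at and 1416981_at fell by 1.86 and 1.50, and 1456529_at was not called. Irs1, an adaptor of the insulin receptor, fell by 2.12 (adjusted p = 0.00692, and 0.0765 with that block).

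Of 6 other PKA subunits and inhibitors Prkar1b, a regulatory subunit, rose with hCG in wild type by 2.83 on 1434325_x_at (adjusted p = 0.0135), a call lost without replicate 3 of wild type after hCG (2.59, adjusted p = 0.0586). Its other probe sets gave smaller values, 1.43 and 0.92 on 1440132_s_at and 1440133_x_at (adjusted p = 0.00797 and 0.0117) and 0.87 and 0.61 on 1416753_at and 1416754_at (adjusted p = 0.155 and 0.377). Of 14 A-kinase anchors 1 rose and 2 fell in wild type, Akap7 by 2.28 on 1433905_at (adjusted p = 0.0119, and 0.0726 with the array-name number as a random block) but with 0.0081 on 1422143_at, which was not called. Of 18 other RGS proteins 0 rose and 2 fell with hCG in wild type and 0 were called in the knockout, where Rgs2 had risen on 1419247_at. Of 8 genes of receptor desensitization 1 rose and 1 fell in wild type. Of 14 gonadotropin target genes 6 rose and 1 fell in wild type and 7 rose and 0 fell in the knockout.

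**Figure D5:**
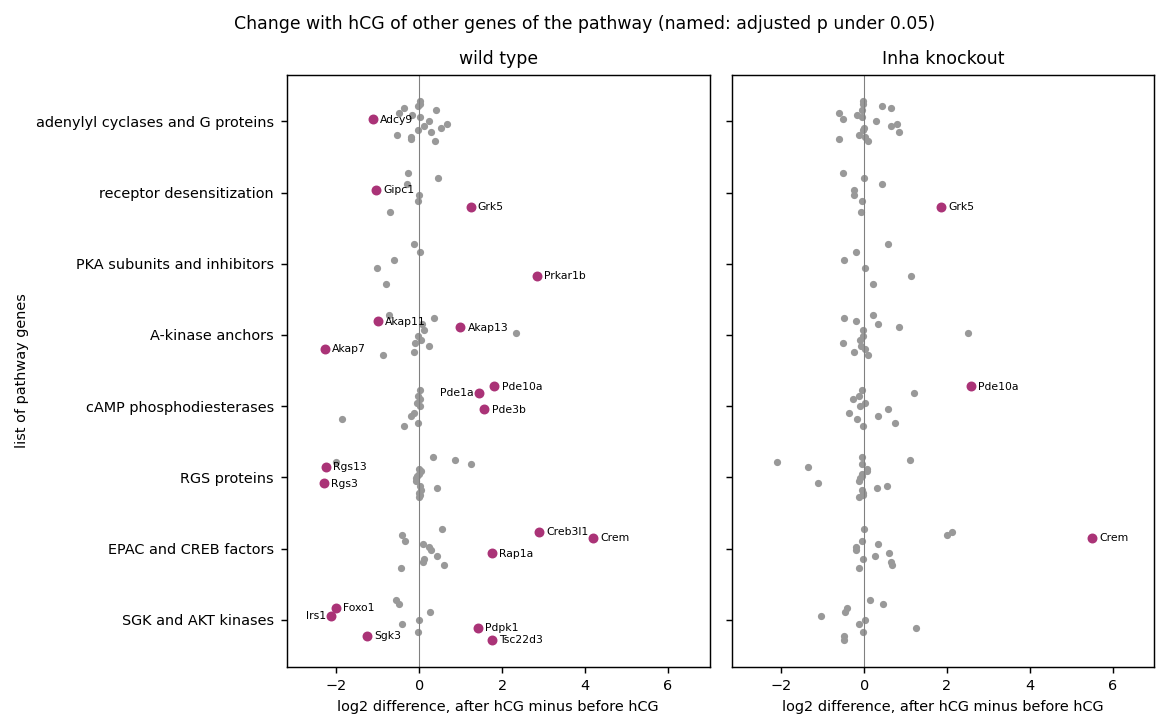
Log2 difference after minus before hCG (horizontal axis) of other genes of the pathway, 1 point a gene, in 8 lists (rows), for wild type and the knockout; named points have an adjusted p under 0.05. Crem lies farthest to the right in both panels, at 4.18 and 5.49, and no gene of these lists was called lower in the knockout panel.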

How the data were processed

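Granulosa cell RNA was hybridized to 12 Affymetrix arrays of 1 colour, 3 in each of 4 groups taken from the sample titles and characteristics. The authors deposited log2 values after GCRMA, per the submitters' processing notes, with no version stated there. The values show a further step, a centring of every probe set on its own median (at most 5e-07 from 0). The table held 45101 probe sets. The annotation table given with the series names 1 gene for 34958, several for 932 and none for 9160, and 64 are controls, of which 13 with a gene name were left out. No probe set was filtered.

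A group-means model over all 12 arrays was fitted with limma 3.58.1 in R 4.3.3 (moderated variances, 8 residual degrees of freedom), for 5 contrasts, each adjusted by Benjamini-Hochberg over 34945 probe sets. A gene's leading probe set has the largest SD over the arrays. Folds are 2 to the power of the log2 difference. The number of arrays limits the precision. The code was tested on simulated data. The members and lists were chosen with earlier results of these data known, and other genes were named where called, up to 4 a list and contrast by smallest adjusted p. Alternatives were a filter on SD, that filter with 1 probe set a gene, quantile normalization of the centred values, and robust moderation. Others were blocks for replicate and array-name numbers, a covariate marking serial numbers as early or late, and leaving out each array. Raw scans were not used here.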

Additional observations from a re-analysis of the deposited data

Results flagged for a closer look

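The hCG response differed between the genotypes, by the interaction test of limma with Benjamini-Hochberg adjustment, on the leading probe sets of 5 genes. These were 1 of the 9 member genes and 4 of 117 other pathway genes, against 1.08% of all leading probe sets. The response in the knockout minus that in wild type was -1.94 for Rgs2 1443250_at (adjusted p = 0.0246), -1.15 for Rap1a 1448020_at (adjusted p = 0.0355) and -2.23 for Tsc22d3 1425281_a_at (adjusted p = 0.00737), whose probe set 1420772_a_at was also called (-2.12, adjusted p = 0.0416). Leaving out 1 array kept the Rgs2 call in 5 of 12 fits, the Rap1a call in 3 and the Tsc22d3 call in all 12. After a further quantile normalization Rgs2 and Rap1a were not called (adjusted p = 0.162 and 0.0995). No other probe set of either gene was called in the main fit. Among the gonadotropin target genes the difference of responses was -6.30 for Prkg2 1435162_at (adjusted p = 5.34e-05). It was -6.10 for Snap25 1416828_at (adjusted p = 0.00077). Prkg2 1435162_at rose by 9.34 in wild type and by 3.04 in the knockout. Its probe set 1435460_at rose by 8.78 and 1.54, with a difference of responses of -7.24 (adjusted p = 4.04e-05). On 1421354_at it rose by 5.07 in wild type and differed by -0.03 in the knockout (adjusted p = 0.966), with a difference of responses of -5.09 (adjusted p = 0.000382). Snap25 1416828_at rose by 7.72 in wild type and differed by 1.62 in the knockout (adjusted p = 0.0604). Its other probe set, 1447763_at, was not called for hCG in wild type (0.84, adjusted p = 0.0699) or for the difference of responses (-0.83, adjusted p = 0.471). With 3 arrays a group, no search for outlying samples was made.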

How the results depend on the processing

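Over all probe sets the calls between the genotypes before hCG went from 1062 to 2596 with the array-name number as a random block (consensus correlation 0.573) and to 158 on early serial numbers alone. After hCG they went from 4238 to 2672 with 1 probe set a gene and the SD filter together (the joint setting), 2297 with that block and 26 on late serial numbers alone. For hCG in wild type they went from 4245 to 2764 in the joint setting and 1962 with the block, the latter giving 1264 higher and 698 lower in place of 2090 and 2155. Of the members, calls before hCG went from 6 to 3 in the joint setting and 2 on early serial numbers. After hCG they went from 8 to 4 in the joint setting, 5 with the block and 1 on late serial numbers. For hCG in wild type they went from 14 to 6 in the joint setting and 9 with the block, and in the knockout from 5 to 3 in the joint setting. For the difference of responses they went from 1 to 2 with the SD filter, in the joint setting and with quantile normalization. The joint setting tests 1 probe set for each of the 9 genes, and the early and late subsets hold fewer arrays. The cause of the other changes was not tested. Leaving out 1 array gave, for all probe sets and members, 527 to 1389 and 5 to 6 (genotypes before hCG), 2488 to 4591 and 5 to 9 (genotypes after hCG), 2274 to 4624 and 10 to 13 (hCG in wild type), 290 to 478 and 4 to 6 (hCG in the knockout), and 142 to 789 and 0 to 3 (difference of responses). The 527 and 142 came without replicate 3 of wild type before hCG, the 2488 and 2274 without replicate 3 of wild type after hCG, and the 789 without replicate 2 of that group. Pgr, a gonadotropin target, went from -0.73 to 0.57 between the genotypes after hCG (adjusted p = 0.112) on quantile normalization. Among the member probe sets and the called pathway genes this was the only change of sign of a called value. Other probe sets were not looked at for this.

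Titles share replicate numbers, but same-numbered samples did not deviate together in every pair (r from -0.141 to 0.265). The same-numbered sample was the best match in every pair of the genotypes before hCG and in every wild-type pair before and after hCG. It was not for replicates 2 and 3 between the genotypes after hCG or in the knockout before and after hCG. The numbers were therefore not taken to pair the samples in the main fit. With the replicate block the calls were 1016, 4150, 4178, 392 and 248 over all probe sets in the order above, and 6, 9, 13, 5 and 0 over the members. The member lost from the difference of responses was Rgs2 1443250_at (adjusted p = 0.0555), and the block also took the adjusted p of Sgk1 for hCG in the knockout to 0.0898 and that of Prkaca 1447720_x_at in wild type to 0.0528.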
